A study of Mus musculus with 12 samples.

Results

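Genes of axon guidance signalling, 10 of the 27998 genes listed, were followed in mammary gland cells of C57BL/6J mice: the secreted ligands Sema3a, Sema3b, Sema3c, Sema3d, Slit2 and Slit3, the membrane-bound ligand Sema4c, and the receptors Nrp1, Nrp2 and Plxna4. They were picked out by gene symbol, as a family proposed with earlier results of these data known, and were read in 4 kinds of fibroblast, in endothelial cells and in each of 12 libraries. All 10 were found, each in 1 row. In GENCODE M21 on GRCm38, Sema3a, Sema3c, Sema3d and Slit2 lie on chromosome 5, Sema4c and Nrp2 on chromosome 1, Sema3b on 9, Slit3 on 11, Nrp1 on 8 and Plxna4 on 6.

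Class 3 semaphorins were first known as repellents of growing axons. They bind neuropilins, which have short cytoplasmic tails and pass the signal on through a plexin such as Plxna4, a co-receptor of Sema3a. Neuropilins also bind vascular endothelial growth factors, Nrp1 mostly on blood vessels and Nrp2 mostly on veins and lymphatic vessels. Sema4c does not use neuropilins and binds Plxnb2. Slit proteins act through Robo receptors, and in the mammary gland they are known for a part in the branching and the layering of ducts.

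All animals were aged 43 weeks, and each group gave 1 library. Intact mice received no VCD (4-vinylcyclohexene diepoxide), an agent that depletes ovarian follicles and leaves the rest of the ovary in place. Mice of the 11 other groups received VCD at 160 mg/kg per day for 15 days. VCD_Vehicle had no hormone, VCD_E2 had 1 µg of estradiol (E2) per day for 1 week, VCD_E2_P4 had E2 with 1 mg of progesterone (P4) per day, and VCD_E2_ICI had E2 with ICI, an antagonist of the estrogen receptor, given once at 5 mg. Feed with polybrominated diphenyl ethers (PBDEs) gave the same 3 hormone states at a low dose for 20 weeks (PBDE-47 at 0.05 mg/kg per day; VCD_Low_PBDE, VCD_Low_E2, VCD_Low_E2_P4) and at a high dose for 1 week (PBDE-47 at 1 mg/kg per day; VCD_High_PBDE, VCD_High_PBDE_E2, VCD_High_PBDE_E2_P4). Dose and duration of PBDE therefore cannot be told apart. VCD_Vehicle_NormEnv was a second vehicle group, kept in a normal environment where exposure to PBDEs from plastic cages was possible. The labels do not say how many animals a library held.

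The libraries held between 41737881 and 109224969 unique molecular identifiers (UMIs, counts of captured transcripts) and between 1996 and 7570 cells that passed the filters, with a median of 11843 to 20446 UMIs per cell. Of 46257 cells, 31353 were fibroblasts, with no UMI of 6 genes of other lineages. Each was placed by marker lists that held none of the 10 genes. There were 11409 Fib_0-like cells (marked by Dpp4 and Pi16), 6919 Fib_1-like cells (Fabp4 and Lpl), 3883 Fib_2-like cells (Tnc and Mfap4) and 3931 Fib_3-like cells (Gdf10 and F3), and 5211 lay between subsets. Markers of each subset were among the leading genes of its own cells, which follows from gating on them and is no check of the gates. Only 151 cells were endothelial-like. Cell barcodes found in more than 1 library numbered 274, which touched 556 of the cells. Levels are given in CPM, the UMIs of a gene among 1000000 UMIs summed over the cells of a library and subset.

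Each ligand had its own pattern over the subsets. Sema3c, a ligand that binds both neuropilins, was highest in Fib_0-like cells: over all libraries it was at 971 CPM in Fib_0-like cells, 102 in Fib_3-like, 46.7 in Fib_2-like and 22.4 in Fib_1-like cells. In the 12 libraries it ranged from 815 to 1148 CPM in Fib_0-like cells and from 10.7 to 165 CPM in the others, with no overlap. Sema3d was also highest in Fib_0-like cells among fibroblasts (58.7 CPM), lower in Fib_3-like cells (31.6) and scarce in Fib_2-like (2.87) and Fib_1-like cells (1.00). Sema3b stood at 59.1 CPM in Fib_0-like cells and between 8.43 and 18.1 in the other 3 subsets. Sema4c stood at 28.9 CPM in Fib_0-like cells and between 9.05 and 14.3 in the others.

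Sema3a, whose product is the classic collapse factor of axon tips, went the other way. It was at 14.2 CPM in Fib_2-like and 12.1 in Fib_1-like cells, against 4.59 in Fib_0-like and 3.35 in Fib_3-like cells. Slit2 was a Fib_2-like gene. It stood at 208 CPM there, 64.6 in Fib_1-like, 17.7 in Fib_3-like and 8.09 in Fib_0-like cells, and its lowest Fib_2-like library (139 CPM) lay above the highest of every other subset (79.7 CPM, in Fib_1-like cells). Slit3, in contrast, was almost even when all libraries were pooled, between 188 and 220 CPM in the 4 subsets. It was less even within hormone states. In VCD_Vehicle, VCD_Low_PBDE and VCD_High_PBDE it was at 161 to 191 CPM in Fib_0-like and 226 to 232 CPM in Fib_2-like cells. In VCD_E2_P4, VCD_Low_E2_P4 and VCD_High_PBDE_E2_P4 the order was reversed, with 222 to 257 and 113 to 132 CPM.

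Among the receptors, Nrp1 was found in every subset and was highest in Fib_3-like cells (390 CPM, against 111 in Fib_0-like, 183 in Fib_2-like and 206 in Fib_1-like cells). Nrp2 was at 46.9 CPM in Fib_2-like cells and between 2.36 and 10.8 in the other 3. Plxna4 was near the limit of detection in fibroblasts, from 0.08 CPM in Fib_1-like to 3.16 CPM in Fib_3-like cells.

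The plot of levels by gate shows these patterns library by library. In edgeR's quasi-likelihood test with the library as a block, each subset was compared with the mean of the other 3. Of 40 pairs of member and subset, 30 had an adjusted p under 0.05, beside 61.3% of all pairs tested, so that such a call was common to most genes and says little of the 10. The sizes differed far more. The log2 difference was 4.50 ± 0.10 (SE, n = 12 libraries) for Sema3c and 3.79 ± 0.11 for Sema3d in Fib_0-like cells. In Fib_2-like cells it was 3.14 ± 0.09 for Slit2 and 2.93 ± 0.12 for Nrp2, and in Fib_3-like cells 1.41 ± 0.09 for Nrp1. For Slit3 it lay between -0.15 and 0.26, and only the Fib_3-like value passed the test (adjusted p = 0.024). That call was kept in 10 of 12 fits that each left out 1 library (adjusted p up to 0.061).

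**Figure D1:**
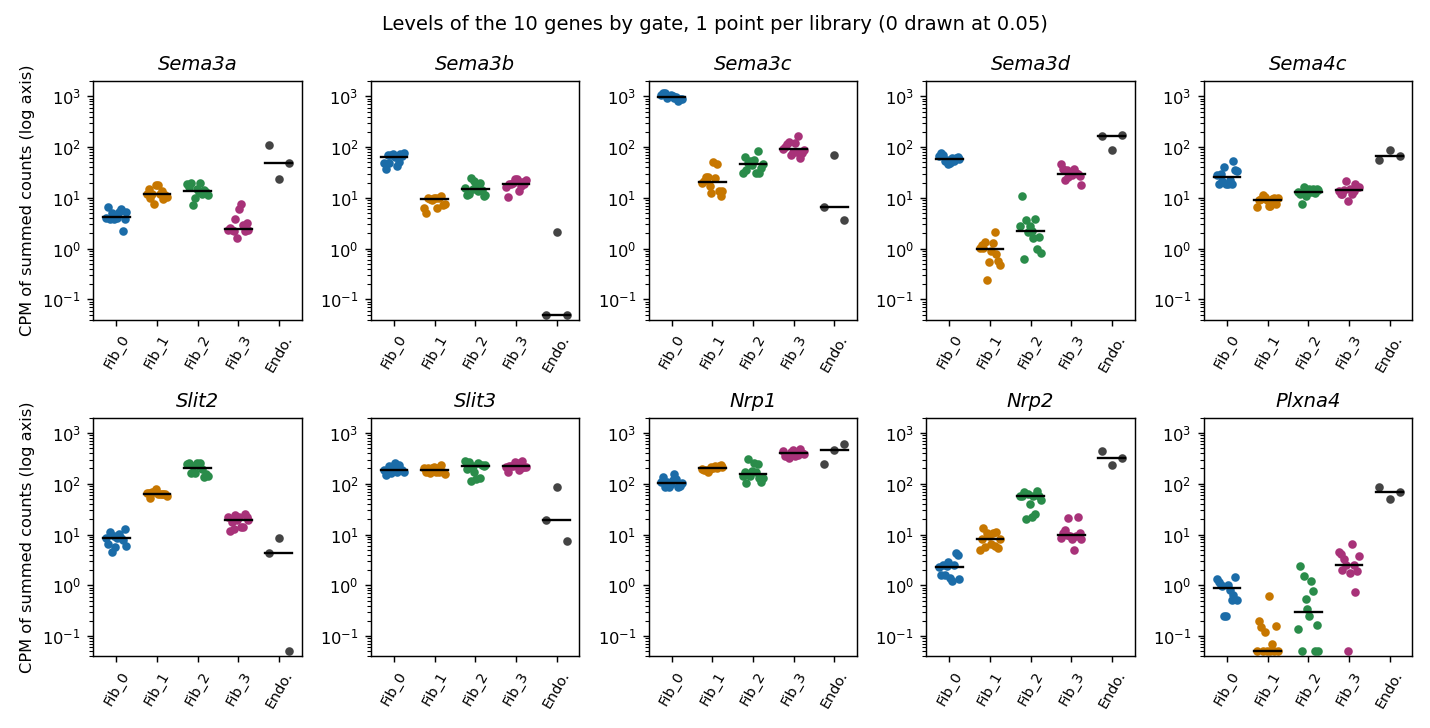
CPM of summed UMI counts (vertical log axis, 0 drawn at 0.05) of the 10 genes in the 4 fibroblast subsets (12 libraries each) and in endothelial-like cells (3 libraries with at least 10 such cells), 1 point per library and a line at the median. Sema3c stands apart in Fib_0-like cells, Slit2 and Nrp2 lead in Fib_2-like cells among fibroblasts, and Plxna4 rises above 10 CPM only in endothelial-like cells.

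Genes whose levels followed a member most closely over the 48 sums of library and subset were taken from 12372 genes, by Pearson's r of log2(CPM + 1). They are a description, since the sums of 1 subset share their cells. Sema3c was closest to Pi16 (r = 0.97), itself a marker used for the Fib_0-like gate. Sema3d was closest to Il33, a cytokine of the interleukin-1 family (r = 0.97), Slit2 to the transcription factor Tbx2 (r = 0.97) and Nrp2 to Scg3 (r = 0.96), a marker used for the Fib_2-like gate. Nrp1 was closest to Arhgdib (r = 0.92), and Slit3 to the complement gene C1ra (r = 0.83).

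Nrp2 and Plxna4, which were lower in every fibroblast subset, stood out in endothelial-like cells. Over all libraries Nrp2 stood at 325 CPM there, Plxna4 at 74.4, Nrp1 at 454, Sema3d at 167, Sema3a at 66.3 and Sema4c at 65.3 CPM. Sema3b (1.60 CPM), Sema3c (22.5), Slit2 (4.28) and Slit3 (35.3) were low. Only VCD_Low_E2 (20 cells), VCD_Low_E2_P4 (70 cells) and VCD_Vehicle_NormEnv (20 cells) held at least 10 endothelial-like cells, and the comparison with the mean of the 4 fibroblast subsets rests on these 3 libraries. Plxna4 measured 87.8, 49.6 and 70.3 CPM in them and no fibroblast sum reached 10 CPM. Nrp2 measured 443, 237 and 322 CPM.

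All 10 members passed the test between endothelial-like cells and fibroblasts, beside 35.6% of the genes tested, 6 of them higher (beside 16.5% of genes) and 4 lower (beside 19.1%). The log2 difference was 6.58 ± 0.31 for Plxna4 (adjusted p = 2.4e-09), 4.95 ± 0.27 for Nrp2, 3.64 ± 0.31 for Sema3d, 2.50 ± 0.38 for Sema3a and 1.97 ± 0.22 for Sema4c. It was -2.58 ± 0.44 for Slit3 and -3.18 ± 0.52 for Slit2. For Nrp1 it was 0.66 ± 0.21 (adjusted p = 0.025), and this call was lost without VCD_Low_E2_P4 (0.57, adjusted p = 0.12) and without VCD_Vehicle_NormEnv (0.35, adjusted p = 0.33). Over 13 alternatives the log2 difference ranged from -4.12 to -1.69 for Slit3, -4.12 to -1.44 for Slit2 and 0.35 to 2.02 for Nrp1. Sema3b and Slit2 rested on 0 to 4 UMIs in each of these 3 libraries. The 6 fibroblast markers, 1 of them at 0 because the gate required it, summed to 2947 CPM in endothelial-like cells, against 24932 CPM in Fib_0-like cells. Of the 3 libraries tested, VCD_Low_E2_P4 had 10582 CPM of them, VCD_Low_E2 395 and VCD_Vehicle_NormEnv 496, and their part in the endothelial levels was not tested.

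The leading genes of the endothelial-like cells included Ccl21a, Mmrn1, Lyve1 and Reln, which are lymphatic genes, so the gate was divided. At least 2 of 6 lymphatic markers had a UMI in 54 cells, and the other 97 cells fell short of this. The neuropilins parted along this line. The 97 other cells held 848 UMIs of Nrp1 (1126 CPM, 95% Poisson interval 1052 to 1205), and the 54 lymphatic cells held none, with an upper bound of 3.30 CPM in the same interval. Nrp2 stood at 432 CPM (394 to 472) in the lymphatic cells and at 166 CPM (138 to 198) in the others.

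Sema3a, Sema3d and Plxna4 were on the lymphatic side. Sema3d had 279 CPM in lymphatic cells and 2.66 CPM in the others, Sema3a 110 and 1.33 CPM, and Plxna4 111 and 19.9 CPM. Sema4c (34.9 and 110 CPM) and Slit3 (1.79 and 85.0 CPM) had the opposite order. Of the receptors of vascular endothelial growth factors, which were not used to divide the gate, Flt4, the receptor of lymphatic vessels, stood at 1169 CPM in lymphatic cells and 74.4 in the others, and Flt1 at 0 and 1500 CPM. Kdr was found in both (597 and 737 CPM). These are pooled cells, most of them from few libraries, and the intervals cover counting error only. No test was made between the parts, and hormone states could not be compared in endothelial-like cells, since only 2 of the 9 libraries needed held enough of them.

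**Figure D2:**
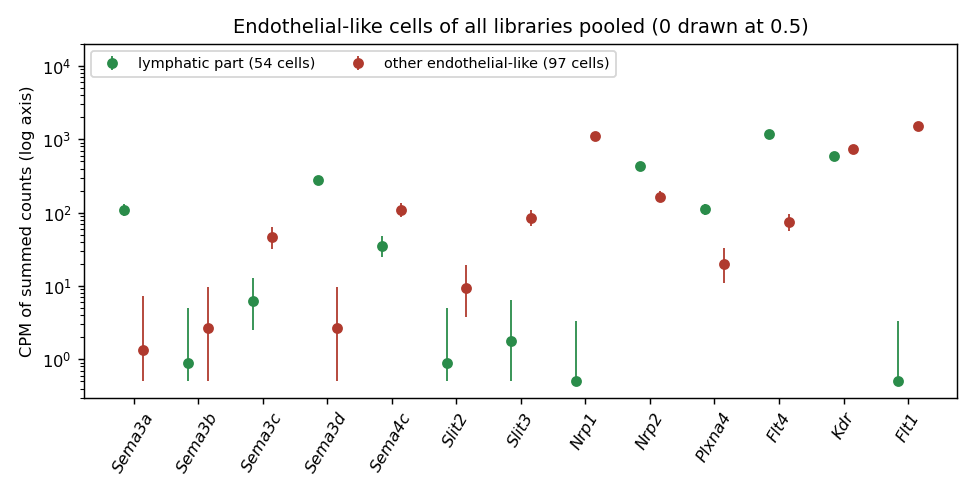
CPM (vertical log axis, 0 drawn at 0.5) of the 10 genes and of Flt4, Kdr and Flt1 in the 54 lymphatic and the 97 other endothelial-like cells, pooled over libraries, with 95% Poisson intervals of the counts. Nrp1 and Flt1 are at 0 in the lymphatic cells, where Sema3a, Sema3d and Plxna4 are high.

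Other cell types were few or outside the comparisons. In 58 Schwann-like cells, the glia of peripheral nerves, Sema3b stood at 368 CPM, above its level in every fibroblast subset, and Sema3c at 281 CPM. In 5655 immune-like cells Nrp1 (135 CPM) and Nrp2 (54.6 CPM) were found, whereas Slit2 was at 1.24 and Slit3 at 4.40 CPM. Sema3c was at 10.6 CPM in immune-like cells.

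The question of the hormone groups is what E2 and P4 did to these genes in each subset after follicle depletion. It was taken over 9 libraries, with no hormone, E2 or E2 + P4, each without PBDE, with low PBDE and with high PBDE. The E2 contrast is the mean of the E2 and the E2 + P4 libraries minus the 3 libraries without hormone, in a fit that adds hormone and PBDE. Since each combination is 1 library, the spread is what this sum leaves over (4 residual degrees of freedom), and the 3 libraries of a hormone state differ in PBDE.

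In Fib_2-like cells Nrp1 and Slit2 were higher with hormone and Nrp2 and Slit3 were lower. Of 9 members tested there, 4 passed, beside 33.2% of all genes tested, so that a call was common in this subset and the count says little of the members. In the plot of Fib_2-like cells both receptors and both Slit ligands move apart.

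Nrp1 measured 108.7, 130 and 143 CPM in Fib_2-like cells of VCD_Vehicle, VCD_Low_PBDE and VCD_High_PBDE. It measured 172, 173 and 181 CPM with E2 (in the order no, low and high PBDE) and 305, 243 and 262 CPM with E2 + P4. The 3 hormone states did not overlap. The E2 contrast was 0.71 ± 0.12 on the log2 scale (adjusted p = 0.0014). E2 + P4 was above E2 by 0.61 ± 0.13 (adjusted p = 0.041).

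Nrp2, the receptor of Sema3f and of lymphatic growth factors, measured 56.9, 72.3 and 64.2 CPM without hormone, 58.5, 56.4 and 40.6 CPM with E2 and 20.6, 25.4 and 22.0 CPM with E2 + P4. The E2 libraries overlapped those without hormone, and the E2 + P4 libraries lay below all others. The E2 contrast was -0.97 ± 0.12 (adjusted p = 0.00023). The P4 contrast, E2 + P4 minus E2, was -1.20 ± 0.14 (adjusted p = 0.0053).

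Within a library, Nrp1 had 1.80 to 2.23 UMIs for each UMI of Nrp2 in Fib_2-like cells without hormone, 2.94 to 4.46 with E2 and 9.56 to 14.8 with E2 + P4. This ratio of counts needs no scaling between libraries. Outside the fit it was 2.49 in Intact, 1.51 in VCD_E2_ICI and 2.72 in VCD_Vehicle_NormEnv, which had no hormone and lay above the other libraries without it.

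Slit2 measured 159, 139 and 164 CPM without hormone, 260, 262 and 258 CPM with E2 and 224, 193 and 220 CPM with E2 + P4. All 6 libraries with hormone lay above the 3 without. The E2 contrast was 0.55 ± 0.09 (adjusted p = 0.0014), and the P4 contrast of -0.31 ± 0.10 did not pass (adjusted p = 0.16). Slit3 measured 227, 232 and 226 CPM without hormone, 198, 254 and 171 CPM with E2 and 113, 132 and 122 CPM with E2 + P4. Only the E2 + P4 libraries lay apart. Its E2 contrast was -0.60 ± 0.10 (adjusted p = 0.0017) and its P4 contrast -0.76 ± 0.12 (adjusted p = 0.015).

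Outside the 9 libraries, with no test, Slit2 in Fib_2-like cells was at 242 CPM in Intact, inside the range of the hormone-treated libraries, and at 161 CPM in VCD_E2_ICI, inside the range without hormone. Nrp1 was at 143 CPM in Intact, level with the highest library without hormone, and at 105 CPM in VCD_E2_ICI, below the lowest. Nrp2 stood at 57.5 and 69.7 CPM and Slit3 at 283 and 269 CPM in the same libraries. VCD_Vehicle_NormEnv had 131 CPM of Nrp1, 142 of Slit2, 48.2 of Nrp2 and 233 of Slit3.

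Of the members in Fib_2-like cells, 3 passed the P4 contrast, beside 2.55% of all genes tested: Nrp1, Nrp2 and Slit3, as given above. No member passed it in the other 3 subsets, where 4, 133 and 8 of all genes did (0.0316% in Fib_0-like, 1.11% in Fib_1-like and 0.0705% in Fib_3-like cells). At an unadjusted p under 0.05 there were 13 of 38 pairs of member and subset, beside 13.4% of all pairs tested, and DESeq2 called 5, beside 1.62%.

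Fib_2-like cells also differed between hormone states in other measures. A list of 10 genes that rise when tissue is taken apart summed to 19607 to 26096 CPM without hormone, 10826 to 14372 with E2 and 8035 to 9799 with E2 + P4, with 18792 CPM in Intact and 20661 in VCD_E2_ICI. The 6 fibroblast markers summed to 39892 to 42555, 57094 to 75647 and 83188 to 88475 CPM. The 7 Fib_2 markers of the gate summed to 3270 to 3493, 2438 to 2837 and 2219 to 2565 CPM, and the mean UMIs per cell were 9848 to 11161, 18187 to 19224 and 16313 to 28487. The 8 markers of the Fib_1 subset summed to 2821 to 3126 CPM without hormone and 3535 to 4026 CPM with it, and the 8 of Fib_3 to 511 to 709 CPM without hormone, 440 to 591 with E2 and 355 to 396 with E2 + P4. The 6 basal epithelial markers, 1 of them at 0 because the gate required it, summed to 2.16 to 3.97 CPM without hormone and 9.47 to 39.3 CPM with it. The 6 pericyte markers, 1 of them at 0, went from 49.1 to 53.6 CPM without hormone to 12.8 to 22.7 CPM with it, the 6 Schwann markers from 17.8 to 22.1 CPM to 10.2 to 15.2 CPM, and the 6 endothelial markers, 1 of them at 0, from 0.79 to 1.66 CPM to 2.27 to 4.21 CPM. With E2 + P4 the 6 immune markers, 2 of them at 0, were at 7.58 to 14.7 CPM against 3.75 to 7.28 CPM in the other 6 libraries, and the 6 luminal markers, 1 of them at 0, at 3.09 to 5.49 against 6.18 to 15.6 CPM. The part of these differences in the members' changes was not tested. In bulk sums of a gate, fewer expressing cells and less RNA per cell cannot be told apart.

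The share of Fib_2-like cells with a UMI of Nrp2 shows what depth does. It was 35.1% to 43.9% without hormone, 43.5% to 49.1% with E2 and 24.8% to 33.1% with E2 + P4. Thinned to 3000 UMIs per cell, which left out 158 of the 3883 cells, it was 15.6% to 18.3%, 12.05% to 15.6% and 5.85% to 6.66%. In luminal-like cells, which have little Nrp2, the share was 1.81%, at a median of 3336 UMIs per cell against 12626 in Fib_2-like cells.

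When 2 markers per subset, picked from those the study names (Dpp4 and Pi16, Fabp4 and Lpl, Tnc and Mfap4, Gdf10 and F3), replaced the full lists, Nrp1 (0.76, adjusted p = 0.013), Nrp2 (-1.27, adjusted p = 0.0041) and Slit3 (-0.52, adjusted p = 0.0061) still passed the E2 contrast in Fib_2-like cells, but Slit2 did not (-0.04, adjusted p = 0.88). None of the 3 P4 calls remained (Nrp1 0.14, Nrp2 -0.74 and Slit3 -0.35, adjusted p = 0.81, 0.23 and 0.21). Leaving out libraries in turn kept the 4 E2 calls and the P4 call of Nrp2 in 9 of 9 fits, the P4 call of Slit3 in 5 and that of Nrp1 in 2.

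**Figure D3:**
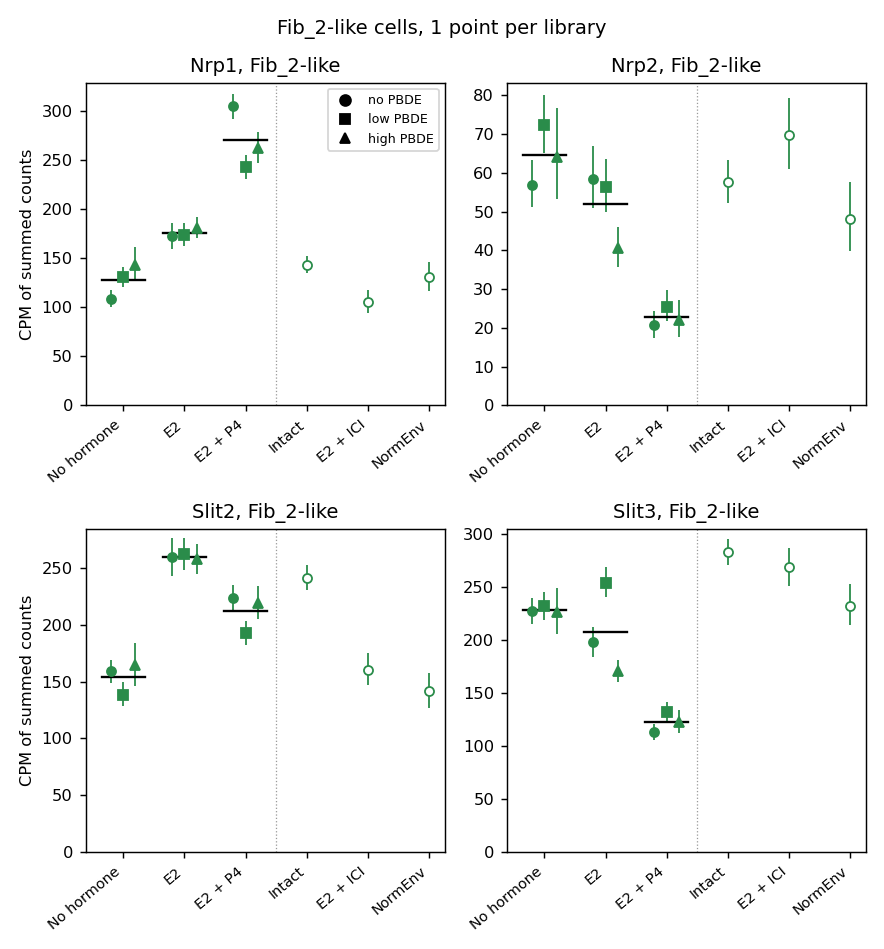
CPM of Nrp1, Nrp2, Slit2 and Slit3 in Fib_2-like cells, 1 point per library with its 95% Poisson interval, by hormone state (horizontal axis), with PBDE as the marker shape and lines at the mean of 3 libraries. Open points are libraries outside the fit. Nrp1 climbs from 108.7 to 143 CPM without hormone to 243 to 305 CPM with E2 + P4, while Nrp2 ends at 20.6 to 25.4 CPM.

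The promoters of these 4 genes are shown because all 4 genes passed the E2 contrast in Fib_2-like cells, Nrp1 and Slit2 upward and Nrp2 and Slit3 downward. That contrast includes the E2 + P4 libraries. For Nrp2 and Slit3 the E2 libraries overlapped those without hormone, and only the E2 + P4 libraries lay apart. The sequences run from 250 bases before to 50 bases after the start (RefSeq, GRCm38.p6), 5′ to 3′ on the strand of the gene, and capitals mark matches to a hormone receptor motif.
Nrp1, chr8:128358823-128359122, plus strand: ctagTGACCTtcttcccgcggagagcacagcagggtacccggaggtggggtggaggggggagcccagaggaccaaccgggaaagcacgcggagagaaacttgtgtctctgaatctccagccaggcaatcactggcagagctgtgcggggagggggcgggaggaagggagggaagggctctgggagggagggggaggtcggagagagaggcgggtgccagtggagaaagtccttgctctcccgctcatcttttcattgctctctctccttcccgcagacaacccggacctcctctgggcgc
Nrp2, chr1:62703067-62703366, plus strand: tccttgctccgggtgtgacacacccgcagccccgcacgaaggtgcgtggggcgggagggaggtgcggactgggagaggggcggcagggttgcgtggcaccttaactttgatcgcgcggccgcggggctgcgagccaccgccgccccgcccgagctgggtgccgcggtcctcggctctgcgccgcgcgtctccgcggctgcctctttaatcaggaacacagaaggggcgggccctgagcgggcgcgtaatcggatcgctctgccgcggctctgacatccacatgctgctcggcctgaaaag
Slit2, chr5:47982905-47983204, plus strand: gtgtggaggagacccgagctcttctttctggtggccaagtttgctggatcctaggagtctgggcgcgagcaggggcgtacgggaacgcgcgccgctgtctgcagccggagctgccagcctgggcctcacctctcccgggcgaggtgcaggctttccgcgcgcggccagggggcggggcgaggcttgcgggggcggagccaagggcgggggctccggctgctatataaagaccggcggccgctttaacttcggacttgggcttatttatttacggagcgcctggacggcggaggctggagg
Slit3, chr11:35121206-35121505, plus strand: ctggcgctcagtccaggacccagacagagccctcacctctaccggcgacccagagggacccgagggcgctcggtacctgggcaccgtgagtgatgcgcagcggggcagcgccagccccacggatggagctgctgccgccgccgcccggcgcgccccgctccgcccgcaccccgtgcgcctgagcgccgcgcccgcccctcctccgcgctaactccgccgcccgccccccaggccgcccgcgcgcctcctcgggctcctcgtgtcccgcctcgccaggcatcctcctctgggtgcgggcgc

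The estrogen and progesterone receptors bind DNA as pairs. Both strands were searched for the estrogen response element, with arms GGTCA and TGACC and 3 bases of any kind between, for the progesterone response element, which also binds the glucocorticoid receptor, with arms AGAACA and TGTTCT and 3 bases between, and for the hexamer AGGTCA, a single arm of the first with its flanking base. The table held 9 promoters of 8 members, and Sema3b and Plxna4 had no entry. Neither palindrome was in any of the 9, and over all 32851 promoters they were in 0.0700% and 0.00913%. The hexamer was in 1 of the 9, 246 bases before the start of Nrp1, as its reverse complement, and in 16.3% of all promoters. GC made up 64.0% of the Nrp1 promoter, 70.7% of Nrp2, 68.0% of Slit2 and 78.3% of Slit3, against a median of 52.7%. A match is a string of letters, and no binding was measured.

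In Fib_0-like cells 2 of 10 members passed the E2 contrast, beside 11.2% of all genes tested. Sema4c was the clearer. It measured 36.1, 52.2 and 40.6 CPM without hormone, 18.5, 22.5 and 18.8 CPM with E2 and 21.7, 18.9 and 19.0 CPM with E2 + P4. All 6 libraries with hormone lay below the 3 without. The E2 contrast was -1.12 ± 0.12 (adjusted p = 0.0036), and P4 added 0.09 ± 0.15 (adjusted p = 0.86). Outside the fit, VCD_E2_ICI had 30.2 CPM, Intact 28.2 CPM and VCD_Vehicle_NormEnv, without hormone, 33.1 CPM, all between the 2 ranges. The call held in each of 20 alternatives (adjusted p up to 0.027). The 8 markers of the Fib_3 subset summed in Fib_0-like cells to 118 to 195 CPM without hormone and 201 to 390 CPM with it, with no overlap. The list of genes that rise when tissue is taken apart was at 9709 to 10468 CPM without hormone, 10115 to 10750 with E2 and 8397 to 9061 with E2 + P4. The part of these lists in the Sema4c contrast was not tested.

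Nrp1 in Fib_0-like cells measured 89.4, 86.3 and 87.1 CPM without hormone, 139, 158 and 97.9 CPM with E2 and 109.2, 127 and 118 CPM with E2 + P4. The groups of the fit did not overlap, and the E2 contrast was 0.48 ± 0.12 (adjusted p = 0.036). It stayed past the threshold in 1 of 9 fits that each left out 1 library, with adjusted p up to 0.19. Outside the fit, VCD_Vehicle_NormEnv, without hormone, had 101.7 CPM, above the lowest E2 library. VCD_E2_ICI had 84.8 CPM, below all of them, and Intact 108.5 CPM. The 6 fibroblast markers summed in Fib_0-like cells to 19751 to 24195 CPM without hormone and 24777 to 29824 CPM with it. The Fib_3 markers, given above, were also higher with hormone without overlap, and Nrp1 over all libraries was higher in Fib_3-like (390 CPM) than in Fib_0-like cells (111 CPM). The part of both lists was not tested. Sema3c, the abundant ligand of these cells, had a contrast of 0.14 ± 0.07 (adjusted p = 0.24).

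In Fib_1-like cells 1 of 9 members tested passed, beside 11.6% of all genes: Sema3c, at 10.7, 13.4 and 16.8 CPM without hormone, 21.4, 24.2 and 12.6 CPM with E2 and 26.1, 45.7 and 50.2 CPM with E2 + P4. The contrast was 1.01 ± 0.23 (adjusted p = 0.023), and the E2 libraries overlapped those without hormone. In Fib_3-like cells 2 of 10 passed, beside 3.72%. Sema3c rose there from 77.6, 61.8 and 69.3 CPM to 102, 80.9 and 80.2 CPM with E2 and 124, 165 and 119 CPM with E2 + P4, with no overlap among the 9 libraries (0.70 ± 0.12, adjusted p = 0.016). VCD_Vehicle_NormEnv, outside the fit and without hormone, was at 87.5 CPM, inside the E2 range. It was at 113 CPM in VCD_E2_ICI and 92.9 CPM in Intact, so the library with antagonist stood among those with hormone. The list of genes that rise when tissue is taken apart summed in Fib_1-like cells to 23533 to 31604 CPM without hormone, 17493 to 21027 with E2 and 13967 to 14857 with E2 + P4, and in Fib_3-like cells to 16032 to 19853, 13861 to 15956 and 12085 to 12943 CPM. The 8 markers of the Fib_0 subset, where Sema3c was highest, summed in Fib_3-like cells to 820 to 923 CPM without hormone, 687 to 994 with E2 and 1158 to 1363 with E2 + P4, and in Fib_1-like cells to 454 to 529, 369 to 502 and 448 to 616 CPM. The 8 markers of the Fib_1 subset were in Fib_1-like cells at 9228 to 10489 CPM without hormone and 10566 to 14348 CPM with it. In Fib_1-like cells the 6 adipocyte markers, 1 of them at 0, were at 4.62 to 8.40 CPM without hormone and 13.1 to 101.8 CPM with it, and the 6 pericyte markers, 1 of them at 0, at 49.0 to 57.9 and 24.6 to 47.3 CPM. There the 6 basal epithelial markers, 1 of them at 0, reached 8.41 to 10.0 CPM with E2 + P4. They were at 2.62 to 3.99 CPM without hormone and 2.79 to 3.26 CPM with E2. The 6 fibroblast markers were at 54003 to 58519 CPM with E2 + P4, 38162 to 43114 without hormone and 34318 to 49248 with E2. In Fib_3-like cells the 6 immune markers, 2 of them at 0, were at 3.803 to 7.40 and 7.45 to 27.8 CPM, and the 4 erythroid markers at 9.62 to 20.3 and 30.7 to 1469 CPM. The part of these lists in the results was not tested.

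Sema3c is abundant in Fib_0-like cells and can reach other droplets as free RNA. In immune-like cells, which should lack it, it was at 36.3 CPM in VCD_Low_E2_P4 and between 4.35 and 11.3 CPM in the other 11 libraries. The part of free RNA in the Fib_1-like and Fib_3-like levels was not tested. Without 1 library the call was lost in 4 of 9 fits in Fib_1-like and in 3 of 9 in Fib_3-like cells, and with a gate margin of 0.6 the Fib_1-like value was 0.61 (adjusted p = 0.32). The Sema3c calls did not hold with the code in the file names as a covariate (0.87, adjusted p = 0.13 in Fib_1-like and 0.59, adjusted p = 0.15 in Fib_3-like cells).

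Slit2 in Fib_3-like cells went against its course in Fib_2-like cells. It measured 22.5, 24.97 and 24.5 CPM without hormone, 11.7, 13.9 and 19.5 CPM with E2 and 13.02, 14.2 and 22.0 CPM with E2 + P4. The groups of the fit lay close but did not overlap. Outside the fit, VCD_Vehicle_NormEnv (19.4 CPM), Intact (21.7) and VCD_E2_ICI (17.3) all lay inside the range with hormone. The contrast was -0.64 ± 0.14 (adjusted p = 0.037), lost in 6 of 9 fits without 1 library and with DESeq2 (adjusted p = 0.14).

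Over the 4 subsets, 9 of 38 pairs passed the E2 contrast beside 14.8% of all pairs tested, 5 of them higher (beside 7.99%) and 4 lower (beside 6.84%), and 19 of 38 had an unadjusted p under 0.05, beside 30.7%. The members' median E2 contrast stood at 0.38 for Fib_2-like cells, against -0.04 (Fib_0-like), -0.10 (Fib_1-like) and -0.14 (Fib_3-like) elsewhere. Plxna4 was too scarce to be tested in Fib_1-like and Fib_2-like cells. Among the pairs that did not pass, Nrp2 measured -1.01 ± 0.28 in Fib_3-like cells (adjusted p = 0.073) and -0.95 ± 0.32 in Fib_0-like cells (adjusted p = 0.097), and Sema3d 1.43 ± 0.54 in Fib_2-like cells (adjusted p = 0.064), where VCD_E2 alone had 10.8 CPM and the other 8 libraries of the layout 0.99 to 3.76. VCD_Vehicle_NormEnv, outside the fit and without hormone, had 8.14 CPM of Nrp2 in Fib_3-like and 1.34 CPM in Fib_0-like cells. Both values lay below the lowest library without hormone in the fit (10.7 and 2.35 CPM).

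**Figure D4:**
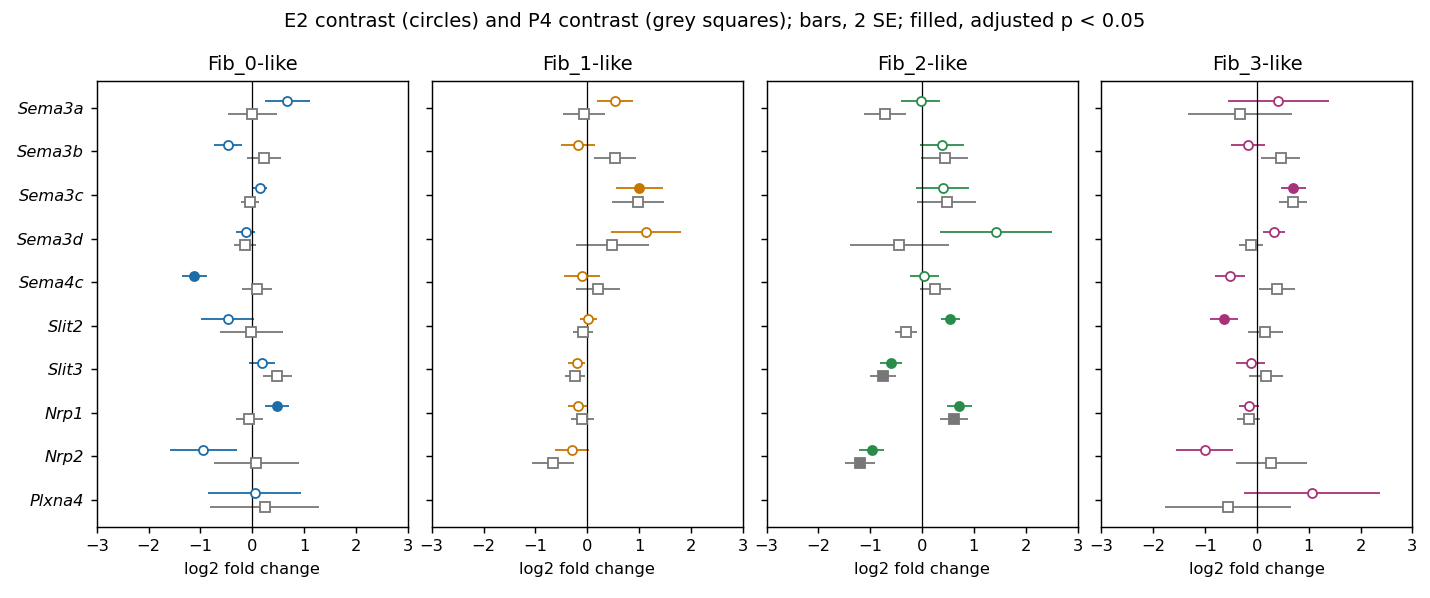
Log2 fold change of the E2 contrast (coloured circles) and the P4 contrast (grey squares) for each member and subset, with bars of 2 SE and filled symbols for an adjusted p under 0.05. In Fib_2-like cells Nrp1 lies to the right and Nrp2 and Slit3 lie to the left in both contrasts, and in Fib_0-like cells Sema4c lies at -1.12. The E2 + P4 libraries enter both contrasts, so the same side in both is no separate result.

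Differences between subsets were tested themselves, as the E2 contrast in 1 subset minus its mean in the other 3. The values of a gene over the 4 subsets are therefore tied, and a large one in 1 subset pushes the others the opposite way. Of 40 pairs, 12 passed, beside 13.3% of all pairs. In Fib_2-like cells Slit2 differed by 0.89 ± 0.18 (adjusted p = 0.00046), Nrp1 by 0.67 ± 0.14 and Slit3 by -0.55 ± 0.13. Over 19 alternatives the Slit2 difference fell as low as 0.27, with adjusted p up to 0.31. Nrp2 was not among those that passed (adjusted p = 0.45), and its E2 contrast was below 0 in all 4 subsets. In Fib_1-like cells only the E2 + P4 mean of Nrp2 was lower. The means there were 9.20 CPM without hormone, 9.37 with E2 and 5.99 with E2 + P4. In the other 3 subsets VCD_Vehicle_NormEnv, outside the fit and without hormone, lay inside the range of Nrp2 with hormone. In Fib_0-like cells Sema4c differed by -0.91 ± 0.12 (adjusted p = 1.8e-05) and Slit3 by 0.50 ± 0.13. Slit3 was at 161 to 191 CPM there without hormone, a range that its E2 libraries overlapped. For P4, 5 of 40 pairs passed, beside 2.07%, and 3 of them were Nrp1, Nrp2 and Slit3 in Fib_2-like cells. Slit3 differed in P4 contrast by -0.92 ± 0.16 in Fib_2-like and by 0.77 ± 0.15 in Fib_0-like cells, where it was at 150, 174 and 223 CPM with E2 and 222, 235 and 257 CPM with E2 + P4. Of the P4 differences in Fib_2-like cells, that of Nrp1 stayed past the threshold in 7 and that of Nrp2 in 5 of 9 fits that each left out 1 library. Over all 19 alternatives they shrank as far as 0.18 for Nrp1 and -0.27 for Nrp2.

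**Figure D5:**
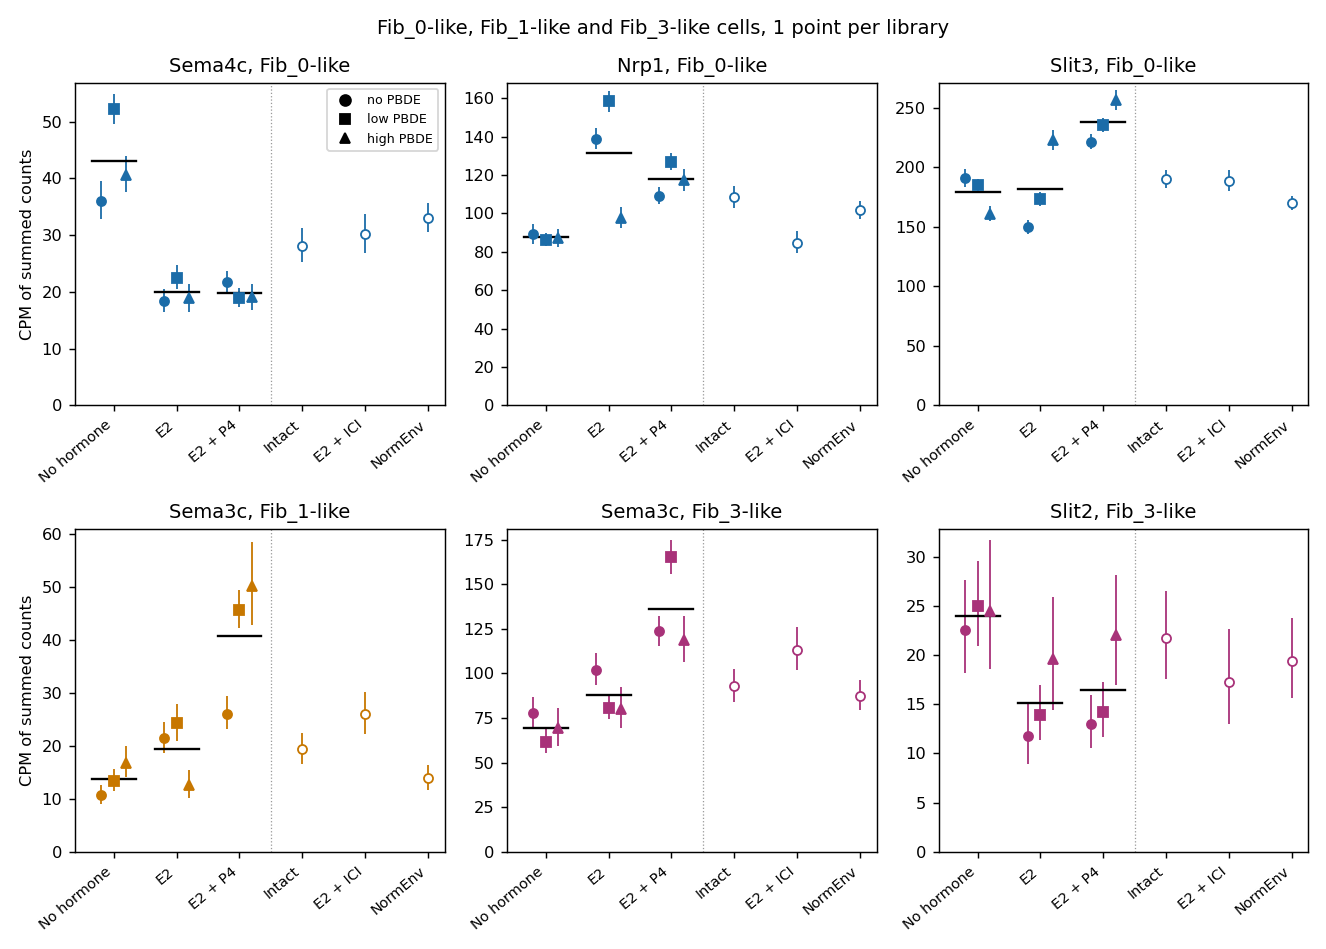
CPM of Sema4c, Nrp1 and Slit3 in Fib_0-like cells, of Sema3c in Fib_1-like and Fib_3-like cells and of Slit2 in Fib_3-like cells. They are drawn as for Fib_2-like cells (1 point per library, 95% Poisson intervals, mean of 3 libraries as a line, open points outside the fit). Sema4c in Fib_0-like cells is at 36.1 to 52.2 CPM without hormone and 18.5 to 22.5 CPM with it.

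PBDE feed was compared in the same fit. None of the 38 pairs passed for low PBDE, beside 0.00211% of all pairs, and none for high PBDE, beside 0.204%. At an unadjusted p under 0.05 there were 2 and 4 pairs, beside 3.47% and 16.2% of all pairs, and DESeq2 called 0 in both, beside 0.0484% and 1.43%. All 3 high-dose libraries carried 1 of the 2 codes in the file names and 3 of the 3 libraries without PBDE the other, and VCD_Low_PBDE alone of the low-dose libraries carried the code of the libraries without PBDE. With the code as a covariate, the separation from the high dose rests on that library, and no member passed there either.

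Other genes of the pathway were tested in the same fit, where 33.2% of all genes passed the E2 contrast in Fib_2-like cells. Of 16 other ligands, 10 were tested there and 5 passed the E2 contrast, 3 of them higher. The 3 were Sema7a, a ligand anchored to the membrane by a lipid, Sema3g, and Sema3f, whose product prefers Nrp2. They had 10, 2 and 3 UMIs in the 3 libraries without hormone together, 70, 49 and 24 with E2 and 273, 65 and 96 with E2 + P4. They passed the filter on low counts through the libraries with hormone, so the size of their change is uncertain and the count of 5 is not read against the share of all genes. The 2 lower ones, named after their values were seen, were Sema6b (-1.08 ± 0.25, adjusted p = 0.0080) and Sema4a (adjusted p = 0.029).

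Of 12 other receptors, 8 were tested in Fib_2-like cells and 5 passed, beside 33.2% of all genes. Robo2, a receptor of Slit proteins, stood at 1.08 to 6.30 CPM without hormone, 11.6 to 12.8 CPM with E2 and 13.2 to 18.7 CPM with E2 + P4 (1.53 ± 0.26, adjusted p = 0.0013). Plxnb2, which binds Sema4c, rose by 0.33 ± 0.09 (adjusted p = 0.021) and Plxna2 fell by 0.72 on the log2 scale (adjusted p = 0.040). The other 2, Robo1 (higher, adjusted p = 0.046) and Plxnd1 (lower, adjusted p = 0.045), were likewise named after their values were seen. Of 17 intracellular partners, 14 were tested and 4 passed, all higher, beside the same share of all genes, so the count says little of them. Mical2, an enzyme that oxidises actin, was at 10.1 to 13.5 CPM without hormone and 36.8 to 89.0 CPM with it (2.60 ± 0.23, adjusted p = 3.4e-05). Gipc1 (0.63 ± 0.10), Dpysl3 (0.41 ± 0.09) and Srgap1 (0.36 ± 0.10) were the others.

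Of 8 growth factors and receptors that share the neuropilins, 5 were tested in Fib_2-like cells and 4 passed, beside 33.2% of all genes. Vegfa fell from 75.5 to 83.0 CPM without hormone to 28.0 to 31.3 CPM with E2 and 17.8 to 34.7 CPM with E2 + P4 (-1.64 ± 0.15, adjusted p = 4.3e-05). Kdr (-1.61 ± 0.27) and Figf (-0.70 ± 0.13), a ligand of Flt4, fell too. Vegfc, another ligand of Flt4, rose by 0.47 ± 0.12 (adjusted p = 0.011).

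In Fib_0-like cells, beside 11.2% of all genes, 1 of 9 other ligands tested passed, Sema3e, a ligand of Plxnd1, which fell from 38.0 to 53.5 CPM without hormone to 21.8 to 34.9 CPM with it (-0.86 ± 0.10, adjusted p = 0.0039). One of 6 other receptors passed, Plxna1 (-0.67 ± 0.07, adjusted p = 0.0036), 2 of 14 partners (Fes 0.62 ± 0.09 and Gipc1 0.37 ± 0.09, both higher) and 2 of 6 growth factor genes, Pgf (-0.47 ± 0.11) and Figf. Figf rose there from 91.5 to 124 CPM without hormone to 211 to 359 CPM with it (1.34 ± 0.14, adjusted p = 0.0036), and its contrast in Fib_2-like cells is given above. In Fib_1-like cells, beside 11.6% of all genes, 2 of 9 ligands, 0 of 7 receptors, 2 of 14 partners and 1 of 4 growth factor genes passed. They were Sema3g, which had 2 UMIs in the 3 libraries without hormone and passed the filter through the others, Sema7a (1.43 ± 0.34), Gipc1 (0.38 ± 0.09) and Mical2 (1.13 ± 0.26), and Figf (1.15 ± 0.11), all higher. In Fib_3-like cells, beside 3.72%, the counts were 0 of 9, 0 of 6, 0 of 14 and 2 of 6, the last being Figf (0.73 ± 0.12) and Vegfc (-0.75 ± 0.13).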

How the data were processed

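Cells of the fourth mammary gland, freed of lymph nodes and digested with collagenase, were profiled with Chromium v3 in 12 libraries. The counts deposited by the authors are UMIs of each gene in each barcode, not normalized, made with Cell Ranger 3.1.0 on mm10 per the labels' processing notes. Of 58620 barcodes, 46257 were kept, with 500 or more genes, 1000 or more UMIs and no more than 5% of UMIs from mitochondrial genes. No doublet caller was run; cells above 3 times the median UMIs of their library and gate were left out in an alternative.

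Fibroblasts lacked UMIs of Cspg4, Pecam1, Cd52, Ptprc, Krt14 and Epcam and had at least 4 of Col1a1, Col1a2, Col3a1, Dcn, Lum and Pdgfra. Each took the subset list with the highest mean standardized level if it led by at least 0.3, and 3179 (10.1%) lay within 0.1 of that limit. Endothelial-like cells had at least 3 of Pecam1, Cdh5, Cldn5, Emcn, Egfl7 and Esam and no Pdgfra. The gates were rebuilt here and can differ from the study's clusters.

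UMIs were summed per library and gate (at least 10 cells) and tested with edgeR 4.0.16 in R 4.3.3 (TMM, filterByExpr, quasi-likelihood test, Benjamini-Hochberg adjustment over all genes, threshold 0.05). Intact, VCD_Vehicle_NormEnv and VCD_E2_ICI stood outside the hormone fit. In the hormone fit, p-values measure the spread that the additive layout leaves between libraries, which may be technical. The subset, endothelial and interaction fits had the library as a block. Their p-values measure the spread left between the sums of library and gate, which may be technical too. The interaction fit had 18 residual degrees of freedom. SE is the log2 difference divided by the root of F. Intervals are exact, at 95%, and cover counting error only. The code was tested on simulated data. DESeq2 1.42.0 and other settings were alternatives. The members and lists were chosen with earlier results of these data known. Genes named beyond the members were the 3 per list and subset with the smallest adjusted p of the E2 contrast and the gene closest in pattern; Flt4, Flt1, Kdr in endothelial-like cells and further genes that passed were named after their values were seen. The interaction of gate and P4 was added after the data were seen.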

Additional observations from a re-analysis of the deposited data

Results flagged for a closer look

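The effect of a hormone differed between subsets, by a test of the difference itself (the contrast in 1 subset minus its mean in the other 3), for the following genes. The E2 contrast is again the mean of the E2 and the E2 + P4 libraries minus those without hormone. For this E2 contrast the genes in Fib_0-like cells were Sema3b (-0.48), Sema3c (-0.52), Sema3d (-1.06), Sema4c (-0.91) and Slit3 (0.50). In Fib_1-like cells it was Nrp1 (-0.54). In Fib_2-like cells they were Nrp1 (0.67), Sema3b (0.63), Sema4c (0.56), Slit2 (0.89) and Slit3 (-0.55), and in Fib_3-like cells Nrp1 (-0.49). All are log2 differences with adjusted p between 1.8e-05 and 0.043 (edgeR). Some of these calls were lost when 1 of the 9 libraries was left out. Sema3c in Fib_0-like cells stayed past the threshold in 4 of 9 such fits (adjusted p up to 0.17, and up to 0.63 over all 19 alternatives) and Nrp1 in Fib_3-like cells in 3 (up to 0.21). Slit3 in Fib_0-like, Nrp1 in Fib_1-like and Sema4c in Fib_2-like cells each stayed in 7, and the other 7 in all 9. Without VCD_Low_PBDE all 5 of these calls were lost. Over all 19 alternatives Slit2 in Fib_2-like cells fell as low as 0.27, with adjusted p up to 0.31. Sema3b in Fib_2-like cells reached an adjusted p of 0.070. The 4 values of a gene are tied, since each subset is set against the other 3, so opposite signs in a pair of subsets are no separate result. The E2 contrast of Sema3d itself in Fib_0-like cells was -0.13 ± 0.09 (adjusted p = 0.40), against 1.43 (Fib_2-like), 1.13 (Fib_1-like) and 0.33 (Fib_3-like), none past the threshold. In the 9 libraries it had 4 to 40 UMIs in Fib_2-like cells, where VCD_E2 alone was at 10.8 CPM, and 2 to 31 in Fib_1-like cells. Sema3c and Slit3 did not pass their own E2 contrast in Fib_0-like cells either (0.14, adjusted p = 0.24, and 0.19, adjusted p = 0.34). Slit3 averaged 179 CPM without hormone, 182 with E2 and 238 with E2 + P4 in Fib_0-like cells. In Fib_2-like cells its means were 229, 208 and 122 CPM, so the larger step lay at E2 + P4 in both subsets. In their own E2 contrasts Sema3b passed neither in Fib_0-like (-0.47, adjusted p = 0.065) nor in Fib_2-like cells (0.38, adjusted p = 0.20), and Sema4c passed in Fib_0-like but not in Fib_2-like cells (0.04, adjusted p = 0.93). Nrp1 did not pass its own E2 contrast in Fib_1-like or Fib_3-like cells, and its libraries with and without hormone overlapped there. Its means without hormone, with E2 and with E2 + P4 were 219, 206 and 195 CPM in Fib_1-like cells. In Fib_3-like cells they were 429, 404 and 347 CPM.

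For P4 the differences that passed were Sema3c (-0.74) and Slit3 (0.77) in Fib_0-like cells and Nrp1 (0.72), Nrp2 (-1.11) and Slit3 (-0.92) in Fib_2-like cells, with adjusted p between 0.0017 and 0.040. Sema3c stayed past the threshold in 2 of 9 fits without 1 library (adjusted p up to 0.21, and up to 0.76 over all alternatives), Nrp2 in 5, Nrp1 in 7, and Slit3 in 9 for Fib_2-like cells and in 8 for Fib_0-like cells. Over all alternatives Nrp2 shrank as far as -0.27 (adjusted p up to 0.74) and Nrp1 as far as 0.18 (up to 0.56). For Slit3 in Fib_2-like cells the adjusted p reached 0.061. Nrp2 was lost without VCD_E2, VCD_E2_P4, VCD_Low_E2 or VCD_Low_E2_P4, and Nrp1 without VCD_E2_P4 or VCD_Low_E2. The Slit3 values are tied in the same way, and its own P4 contrast in Fib_0-like cells did not pass (0.48 ± 0.14, adjusted p = 0.32). Sema3c did not pass its own P4 contrast in Fib_0-like cells either, where its mean was 1054 CPM with E2 and 962 CPM with E2 + P4. Nor did Sema3c pass in Fib_1-like (0.97, adjusted p = 0.091) or Fib_3-like cells (0.69, adjusted p = 0.15). Groups of 3 libraries were too small for a search for single outlying samples.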

How the results depend on the processing

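Counts here are of pairs of member and gate. The count that passed the E2 contrast was 9; it became 15 with no filter on low counts and 5 with the code in the file names as a covariate, which gives nearly the values found without VCD_Low_PBDE, and it ranged from 5 to 11 when 1 library was left out. The P4 count of 3 became 6 with no filter, 5 with DESeq2 and 0 with 2 markers per subset, and ranged from 1 to 3 without 1 library, with 1 where VCD_E2, VCD_E2_P4, VCD_Low_E2 or VCD_Low_E2_P4 was left out. The PBDE count was 0 under every alternative run. The subset count of 30 (27 to 32 without 1 library) and the endothelial count of 10 (9 to 10) stayed within 1.5 times. The interaction count for E2, 12, ranged from 7, without VCD_Low_PBDE, to 15, and that for P4, 5, fell to 2 with a gate margin of 0, to 1 with 2 markers per subset and ranged from 2, without VCD_E2 or VCD_E2_P4, to 5, with 3 without VCD_Low_E2 or VCD_Low_E2_P4.

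With 2 markers per subset, picked from those the study names, Slit2 in Fib_2-like cells turned to -0.0389 in the E2 contrast, Sema3d in Fib_2-like cells to 0.36 and Plxna4 in Fib_3-like cells to -0.75 in the subset contrast, none past the threshold; the cause was not tested. Within each of the 2 file codes (1 of them with a single library without hormone) the 9 called pairs kept their sign, at 0.48 to 0.94 for the 5 higher and -1.08 to -0.47 for the 4 lower. The pairs were picked by a contrast over these same libraries, so the kept sign is no separate check. Over all genes, calls of the E2 contrast ranged from 199 to 1783 in Fib_0-like (1413 as reported), 605 to 2002 in Fib_1-like (1385), 2358 to 4132 in Fib_2-like (3821) and 38 to 918 in Fib_3-like cells (422). Those of P4 ranged from 0 to 126, 0 to 556, 3 to 758 and 1 to 180 (4, 133, 293 and 8), those of high PBDE from 0 to 323, 0 to 326, 0 to 230 and 3 to 320 (23, 47, 4 and 23), those of low PBDE from 0 to 38 (0 or 1), those of the interaction with E2 from 1104 to 2487, 144 to 661, 2527 to 3930 and 153 to 785 (2254, 452, 3591 and 552), those with P4 from 95 to 859, 1 to 226, 95 to 691 and 0 to 32 (543, 52, 474 and 0), and those of the endothelial contrast from 2987 to 7297 (4533). No paired analysis was possible because the labels carry no replicate numbers; the library was already a block in the subset and endothelial contrasts, and PBDE a term in the hormone fit. The E2 contrasts rest on the same 3 libraries without hormone. The E2 + P4 libraries enter both the E2 and the P4 contrast, so those contrasts are tied. Plxna4 lies near the limit of depth in fibroblasts, and the endothelial values rest on 151 cells.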
